A study of Homo sapiens with 15 samples.

Results

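The genes described here are 48 interferon-stimulated genes and their transcription factors, chosen by name from a table of 26475 genes and followed across RNA-seq libraries of A549 cells. A549 is a human lung adenocarcinoma line that the labels describe as alveolar type II like. The study holds 15 libraries in 5 groups of 3, all from this line. One group received IL4 with Compound A, one IL4 with an ALOX15 Smartpool siRNA, one IL4 with a control Smartpool siRNA, one IL4 alone, and one was untreated. IL4 was given at 10 ng/ml in all 4 treated groups and the ALOX15 siRNA at 1 uM, for 48 h per the labels' protocols. The dose, vehicle and identity of Compound A, and the control siRNA's dose, are not stated in the labels. The siRNAs were pools against a transcript, so the ALOX15 group is a knockdown and not a deletion. Nothing in the labels says that replicates were separate cultures, so p-values measure the spread between these libraries, which may be technical.

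Type I interferons bind the receptor IFNAR1 and IFNAR2, whose kinases JAK1 and TYK2 phosphorylate transcription factors such as STAT2. STAT2 and IRF9 belong to a complex that binds interferon-stimulated response elements (ISREs) near the genes it induces, while IRF1 binds closely related elements. The induced proteins sense viral RNA, degrade it, block viral entry or tag proteins with the ubiquitin-like modifier ISG15. IL4 acts through another receptor and mainly through STAT6, and ALOX15, the lipoxygenase aimed at by the siRNA, is an established IL4-induced gene.

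The start regions of these genes were searched for letters that such factors read. RefSeq promoter windows, from 250 bases before to 50 after each annotated start on GRCh38.p14, were matched for 40 of the 48 genes. IRF7, OAS2, OASL, IFIT2, USP18, MX2, IFITM2 and TRIM22 had no window in the table. Each window was searched on both strands for an ISRE core (GAAA, any 2 bases, GAAA) and a STAT6-type motif (TTC, any 4 bases, GAA), and matches were allowed to overlap one another. The stretches below were chosen because they belong to genes that rose with IL4 (DTX3L, ISG15, SAMD9), to the single member that fell with it (OAS1), to members that moved with Compound A (OAS3, HERC5, TRIM14) and to a member too low to test (BST2). Capitals mark the matches, and each stretch reads 5′ to 3′ in the direction of its gene.
DTX3L: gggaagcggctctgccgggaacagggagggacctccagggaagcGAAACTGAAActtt
ISG15: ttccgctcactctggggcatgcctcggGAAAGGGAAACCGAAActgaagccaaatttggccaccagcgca
SAMD9: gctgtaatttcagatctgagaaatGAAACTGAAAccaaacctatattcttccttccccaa
OAS1: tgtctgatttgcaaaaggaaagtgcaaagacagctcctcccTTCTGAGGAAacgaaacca
OAS3: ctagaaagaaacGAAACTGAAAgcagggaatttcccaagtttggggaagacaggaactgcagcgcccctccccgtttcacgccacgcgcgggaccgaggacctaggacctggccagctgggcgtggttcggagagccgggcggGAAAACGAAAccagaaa
HERC5: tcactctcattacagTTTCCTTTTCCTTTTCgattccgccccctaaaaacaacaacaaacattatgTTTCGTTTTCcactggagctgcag
TRIM14: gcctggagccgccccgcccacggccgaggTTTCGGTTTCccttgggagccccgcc
BST2: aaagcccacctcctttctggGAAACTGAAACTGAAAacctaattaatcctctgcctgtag
The stretches lie at chr3:122564288-122564345 (plus strand) for DTX3L and chr1:1013357-1013426 (plus strand) for ISG15. SAMD9 is shown at chr7:93118080-93118139 (minus strand) and OAS1 at chr12:112906897-112906956 (plus strand). OAS3 is shown at chr12:112938319-112938478 (plus strand), HERC5 at chr4:88456979-88457068 (plus strand), TRIM14 at chr9:98119223-98119277 (minus strand) and BST2 at chr19:17405721-17405780 (minus strand).

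IRF1 held neither motif in its window, and OAS1 held a STAT6-type match and no match to the ISRE core as spelled here. The OAS1 stretch does hold GAAACGAAA, overlapping the STAT6-type match. Its GAAA copies lie closer together than the core pattern allows. Other spacings were not searched, neither of GAAA copies nor of TTC and GAA. A window without a match, such as that of IRF1, therefore lacks only the patterns as spelled here. In ISG15, HERC5 and BST2, neighbouring ISRE cores overlapped. DTX3L and PARP9 are divergent neighbours, and the ISRE core of the DTX3L stretch, at chr3:122564332-122564341, was also the match in the second PARP9 window, read from the other strand. An ISRE core was present in 26 of the 40 genes with a window (65%), against 1195 of all 27305 genes in the table (4.38%). The members were chosen by name as interferon-stimulated genes, so this contrast follows largely from the choice of list. It was present in 10 of the 19 windowed members that were higher with IL4, in 9 of the 12 tested members that were not, and in 7 of the 9 that could not be tested. STAT6-type matches were found in 4 of 40 members (10%), against 7.80% of all genes. A match describes letters in a window and not a bound site.

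**Figure D1:**
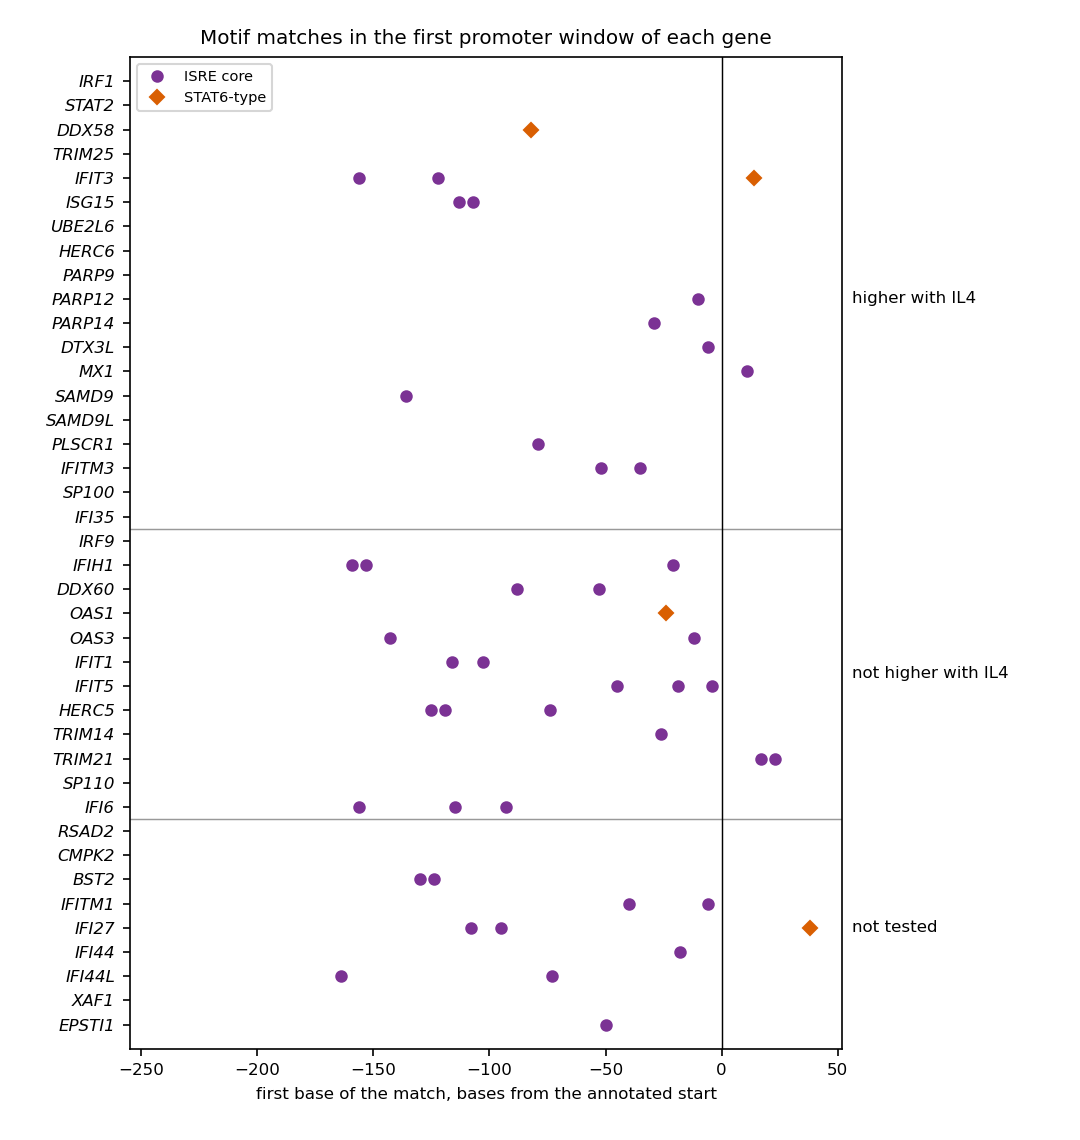
Position of each motif match in the first promoter window of the 40 matched genes, in bases from the annotated start (vertical line), with circles for ISRE cores and diamonds for STAT6-type matches. Genes are grouped by whether they were higher with IL4, tested and not higher, or not tested. Circles occur in all 3 groups of genes, and the row of IRF1 is empty for the spacings searched.

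Each library held 6407936 to 11031246 counts, with untreated replicate 1 the deepest. IL4 replicate 1 stood farther from its group mates than any other library did: its root mean square difference from their mean was 0.41 on the log2 CPM scale over all genes tested, against 0.25 to 0.33 in the other 14 libraries. Counts of members without it are given below. The siRNA target ALOX15 was at 0.134, 0.310 and 0.318 CPM (counts per 1e6 counts of the library) in the ALOX15 siRNA libraries, against 3.90, 3.59 and 3.24 CPM in the control siRNA libraries. Among alveolar type II markers SFTPB was at 0 in every library, and 4 of the 5 markers stayed under 1 CPM. Of 8 immune cell markers, PTPRC, CD3E, NKG7 and CLEC4C were at 0 in every library, and the 8 together summed to 1.26 to 4.41 CPM. RNA came from whole wells, so fewer cells of a type and less RNA per cell cannot be told apart.

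Many of the classical interferon-induced genes were barely present in these cells. Of the 48 members, 36 passed the filter on low counts (about 10 counts, or 1.34 CPM at the median depth, in at least 3 libraries) and were tested. The other 12 included OAS2, a 2′,5′-oligoadenylate synthetase, its relative OASL, and MX2, a dynamin-like GTPase. Also untested were RSAD2 (viperin), its neighbour CMPK2, and BST2 (tetherin), which holds budding virions at the membrane. The rest were IFITM1, which blocks viral fusion, and IFI27, IFI44, IFI44L, XAF1 and EPSTI1. None of these 12 exceeded 1.55 CPM in any library. MX2 and RSAD2 had 2 counts each over all 15 libraries together, IFI44L and XAF1 had 4 each, and IFI44 had 9. Over 15 libraries, a total of 3 counts corresponds to 0.0259 CPM, the level a count of 0 still allows, counting error only.

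The passing members had very different levels. Per kilobase of the longest transcript, mean levels in untreated cells were highest for OAS1 and IFITM2, each at 20.3 CPM per kb, followed by TRIM25 at 18.9, PLSCR1 at 12.1 and IFITM3 at 11.1 CPM per kb. OAS1 makes 2′,5′-oligoadenylates that activate RNase L, and TRIM25 is a ubiquitin ligase that acts on the RNA sensor RIG-I. ISG15, often one of the most strongly induced members, was at 2.51 CPM per kb in IL4 cells and 0.835 in untreated cells. The passing set is shaped by the filter: 31 of the 36 were above it in every library, whereas ISG15 was above it throughout in IL4 libraries alone, MX1 in 5 libraries and IFIT1 in 4 libraries of any group. IRF7 was above it in 9 libraries and IFIT2 in 14.

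**Figure D2:**
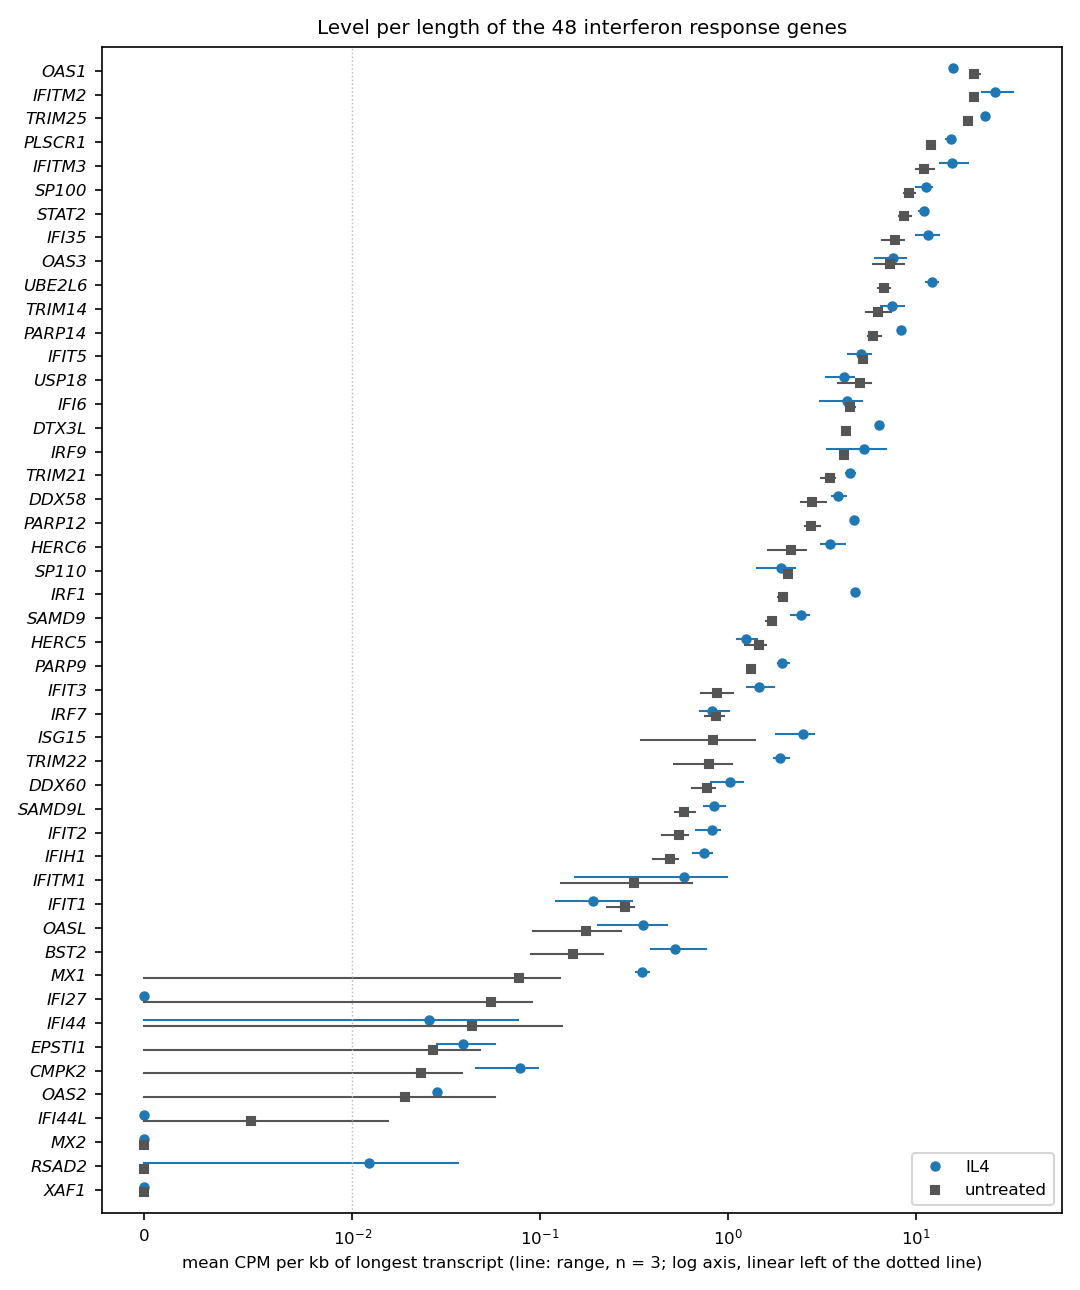
Mean level of the 48 genes in CPM per kilobase of the longest transcript in IL4 libraries (circles) and untreated libraries (squares), with a line for the range of 3 libraries each, on an axis that is logarithmic right of the dotted line and linear left of it. OAS1, IFITM2 and TRIM25 head the list, and MX2 and XAF1 lie at 0 in both groups.

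Treatment with IL4 was followed by higher expression of part of this set. Of the 36 tested members, 21 were higher and 1 was lower in IL4 cells than in untreated cells (edgeR's quasi-likelihood test, Benjamini-Hochberg adjusted p under 0.05 over 12795 genes), while 14 did not pass. Over all genes tested, 22.9% were called in this comparison (11.2% higher and 11.6% lower). The median log2 change of the tested members was 0.41, against -0.02 for all genes tested, and single members ranged from -0.58 to 1.96. Among the 31 members that were above the filter in every library, 19 were higher and 1 lower. The summed level of all 48 members was 746 ± 15.2 CPM in IL4 cells, against 593 ± 17.0 CPM in untreated cells (SD, n = 3 each), and the ranges of 737 to 764 and 574 to 606 CPM did not overlap. Without untreated replicate 1, 12 members were higher, where 1508 of 12912 genes tested were. Without IL4 replicate 1, 19 members were higher, where 1386 of 12945 genes tested were.

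IRF1, a transcription factor on chromosome 5 (ENSG00000125347.13, GRCh38, 132481609 to 132490798, minus strand), showed the clearest difference. It was at 25.3, 23.5 and 24.6 CPM in the IL4 libraries, against 10.4, 9.47 and 10.3 CPM in the untreated libraries. The groups were far apart, at 24.5 ± 0.913 and 10.1 ± 0.522 CPM (SD, n = 3 each), a 2.41-fold difference (log2 change 1.27, SE 0.10, edgeR adjusted p = 4.0e-09). STAT2, which carries the activation domain of the interferon-stimulated complex, was at 34.0, 38.0 and 36.6 CPM with IL4 and at 26.6, 30.7 and 27.9 CPM without it. All 3 IL4 values were above the untreated ones, and the log2 change was 0.35 (SE 0.10, edgeR adjusted p = 0.021). STAT2 did not pass without IL4 replicate 2 or without untreated replicate 1 (adjusted p = 0.054 and 0.069). IRF9, the DNA-binding partner of the STATs, was at 12.8, 10.0 and 6.21 CPM with IL4 and at 7.52, 7.38 and 7.92 CPM without it. The groups overlapped, IL4 replicate 3 lying below the untreated libraries, and IRF9 did not pass (log2 change 0.33, SE 0.18, edgeR adjusted p = 0.20); without that replicate its adjusted p was 0.011. IRF7, the factor that amplifies interferon production, was at 1.55, 1.45 and 2.07 CPM with IL4 and at 1.81, 1.54 and 1.94 CPM without it. These values overlapped, and the interval of its log2 change, -0.81 to 0.69, was wide (adjusted p = 0.93).

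The poly(ADP-ribose) polymerase group moved together. PARP14, a macrodomain mono-ADP-ribosyltransferase, was at 67.5, 72.5 and 69.9 CPM in IL4 cells, against 46.7, 55.0 and 48.4 CPM in untreated cells. DTX3L, a ubiquitin ligase, was at 36.9, 37.1 and 38.2 CPM with IL4, against 24.4, 25.1 and 25.1 CPM in untreated cells. PARP9, the partner with which DTX3L forms a complex, was at 12.8, 14.3 and 12.6 CPM with IL4, against 8.70, 8.70 and 9.41 CPM in untreated cells. In all 3 genes every IL4 library was above every untreated one. How many of all genes tested were separate in this way was not counted. The log2 changes were 0.48 (SE 0.07, edgeR adjusted p = 5.6e-05) for PARP14, 0.58 (SE 0.08, adjusted p = 2.0e-05) for DTX3L and 0.56 (SE 0.13, adjusted p = 0.0036) for PARP9. DTX3L and PARP9 overlap on opposite strands and the strand setting of the counting was not given, so reads from the overlap cannot be told apart. PARP12, a zinc-finger member that restricts viral translation, was at 17.4, 17.4 and 18.2 CPM with IL4, against 9.70, 11.7 and 10.3 CPM in untreated cells. Its groups were likewise separate (log2 change 0.74, SE 0.11, edgeR adjusted p = 5.9e-05).

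In the ISG15 conjugation group, 3 of 5 members were higher with IL4. UBE2L6, the conjugating enzyme for ISG15, was at 20.7, 19.0 and 17.7 CPM with IL4, against 9.88, 11.4 and 10.6 CPM in untreated cells, with no overlap (log2 change 0.84, SE 0.12, edgeR adjusted p = 2.1e-05). ISG15 itself was low, at 2.25, 2.25 and 1.42 CPM with IL4, against 0.272, 1.10 and 0.598 CPM in untreated cells. The groups did not overlap (log2 change 1.59, SE 0.41, edgeR adjusted p = 0.0072), but the values rest on 44 counts in the IL4 libraries and 17 in the untreated ones. HERC6, a HECT-domain ligase, was at 11.8, 12 and 15.9 CPM with IL4, against 8.52, 6.17 and 9.86 CPM in untreated cells (log2 change 0.71, SE 0.19, edgeR adjusted p = 0.0089). ISG15 did not pass without untreated replicate 1 (adjusted p = 0.0504), nor HERC6 without untreated replicate 2 (adjusted p = 0.057). HERC5, the main human ISG15 ligase, and USP18, which removes ISG15 and dampens receptor signalling, had log2 changes of -0.26 and -0.31 and did not pass (edgeR adjusted p = 0.43 and 0.26). The HERC5 and USP18 libraries overlapped between the groups.

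All 4 tested members among the MX, SAMD9 and PLSCR1 restriction factors were higher with IL4. MX1, a GTPase that traps viral nucleocapsids, was at 1.13, 1.32 and 1.16 CPM with IL4, against 0.363, 0.440 and 0 CPM in untreated cells. It had the largest fitted log2 change of the tested members, 1.96 (SE 0.63, edgeR adjusted p = 0.029), yet this rests on 27 counts with IL4 and 8 without. The ratio of the summed counts, scaled to library totals, was 4.04, with an exact 95% interval of 1.78 to 10.3 that covers counting error only. SAMD9, a restriction factor of poxviruses, was at 14.9, 16.8 and 18.5 CPM with IL4, against 12.1, 12.1 and 10.9 CPM in untreated cells (log2 change 0.50, SE 0.12, edgeR adjusted p = 0.0037). Its paralogue SAMD9L was at 5.77, 6.87 and 5.30 CPM with IL4, against 3.72, 3.96 and 4.78 CPM in untreated cells (log2 change 0.54, SE 0.18, edgeR adjusted p = 0.032). PLSCR1, a phospholipid scramblase with antiviral activity, had a smaller log2 change of 0.34 (adjusted p = 0.0098). The groups were separate for all 4 genes, again without a count of such genes among all genes tested. MX1 did not pass without IL4 replicate 2 or untreated replicate 1 or 3 (adjusted p = 0.068, 0.054 and 0.086). SAMD9L did not pass without IL4 replicate 2 or untreated replicate 1 or 2 (adjusted p = 0.11, 0.098 and 0.078).

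Among the tripartite-motif and nuclear body proteins, TRIM22 and SP100 were higher with IL4. TRIM22, a ligase that represses viral transcription, was at 5.35, 5.28 and 6.34 CPM with IL4, against 2.45, 1.54 and 3.14 CPM in untreated cells. That is a log2 change of 1.27 (SE 0.26, edgeR adjusted p = 9.8e-04) with separate groups. SP100, a PML body component, had a log2 change of 0.29 (adjusted p = 0.027). TRIM14, a mitochondrial adaptor of RIG-I signalling, TRIM21, the cytosolic antibody receptor, and SP110, a nuclear body protein, had log2 changes of 0.22, 0.34 and -0.13 and did not pass. Of the RNA sensing group, TRIM25 (log2 change 0.30, adjusted p = 0.0010) and DDX58, which encodes RIG-I (0.45, adjusted p = 0.026), were higher. Without IL4 replicate 3 or untreated replicate 1, neither SP100 (adjusted p = 0.10 and 0.082) nor DDX58 (0.099 and 0.083) passed, and DDX58 also did not without untreated replicate 3 (adjusted p = 0.085). IFIH1, the sensor MDA5, and the helicase DDX60 had log2 changes of 0.60 and 0.38 and did not pass (edgeR adjusted p = 0.14 and 0.20).

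The remaining groups were less uniform. Of the 4 IFIT proteins, which bind foreign RNA, IFIT3 was higher with IL4, at 3.38, 3.17 and 4.40 CPM, against 2.09, 2.64 and 1.79 CPM in untreated cells (log2 change 0.72, SE 0.24, edgeR adjusted p = 0.031). It did not pass without IL4 replicate 3 or untreated replicate 1 or 3 (adjusted p = 0.14, 0.079 and 0.090). IFIT1, IFIT2 and IFIT5 had log2 changes of -0.58, 0.54 and -0.03 and did not pass. The membrane proteins IFITM2 and IFITM3, which block viral entry, were higher, with log2 changes of 0.36 and 0.47 (edgeR adjusted p = 0.047 and 0.021). Their counts were not whole in 15 and 14 libraries, as arises when reads are shared with a near-identical gene, so the split between them is uncertain. Neither passed without IL4 replicate 1 (adjusted p = 0.30 and 0.15) or when untreated replicate 1 or 3 was left out (adjusted p = 0.057 to 0.094). IFI35, an NMI-binding protein, was at 16.5, 14.1 and 12.4 CPM with IL4, against 10.7, 10.0 and 8.22 CPM in untreated cells (log2 change 0.54, SE 0.14, edgeR adjusted p = 0.0065). IFI6, an endoplasmic reticulum protein, had a log2 change of -0.07 and did not pass.

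OAS1 was the single member that fell with IL4, and it is named here after its values were seen. It was at 39.4, 38.2 and 36.6 CPM in IL4 cells, against 52.9, 47.3 and 46.9 CPM in untreated cells. Every IL4 library was below every untreated one (log2 change -0.38, SE 0.09, edgeR adjusted p = 0.0036). Its neighbour OAS3, the synthetase most active on long double-stranded RNA, was at 59.5, 52.2 and 40.9 CPM with IL4 and at 58.0, 49.1 and 39.7 CPM without it. The OAS3 groups overlapped almost fully (log2 change 0.03, interval -0.21 to 0.27).

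**Figure D3:**
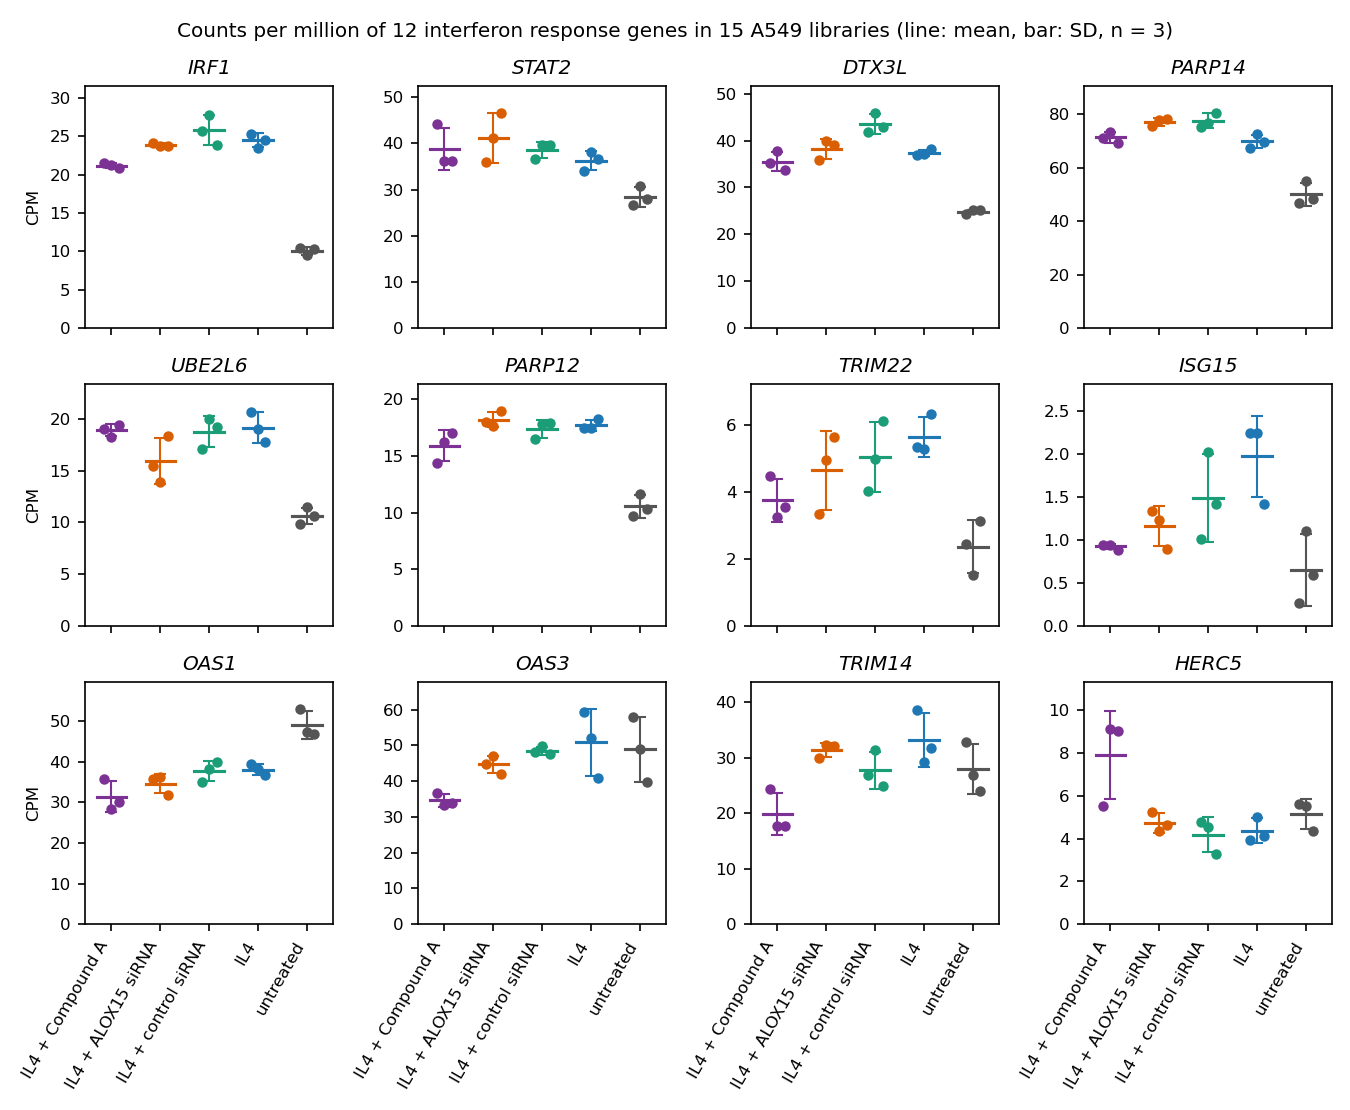
CPM of 12 of the genes in each of the 15 libraries, by group, with the mean as a horizontal line and the SD as a bar (n = 3). IRF1 lies between 20.9 and 27.8 CPM in the 12 libraries with IL4, all above the untreated ones at 9.47 to 10.4 CPM, while OAS1 is highest in untreated libraries and HERC5 has its 2 highest libraries with Compound A.

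The libraries with IL4 and a control siRNA gave another set of IL4-treated cells, set against the same untreated libraries. These 2 comparisons share their untreated libraries, so their values are given side by side and not as independent results. With the control siRNA 17 of the 36 tested members were higher and 1 was lower, where 19.3% of all genes tested were called, 9.93% higher and 9.36% lower. The members' median log2 change was 0.42, against -0.02 for all genes tested. IRF1 was at 25.7, 27.8 and 23.9 CPM in these libraries, all above the untreated ones (log2 change 1.36, SE 0.10, edgeR adjusted p = 1.8e-09). DTX3L was at 41.9, 45.9 and 42.8 CPM (log2 change 0.81, SE 0.08, adjusted p = 2.2e-07) and PARP14 at 75.5, 76.9 and 80.7 CPM (0.64, SE 0.07, adjusted p = 1.4e-06). The other members with the smallest adjusted p were UBE2L6 (0.82), SAMD9 (0.78), PARP12 (0.73), PARP9 (0.80) and TRIM25 (0.37), on the log2 scale against untreated cells. OAS1 had the same log2 change against untreated cells as with IL4 alone, -0.38 (adjusted p = 0.0042). ISG15 (1.19, edgeR adjusted p = 0.062), IFITM2 (0.29, adjusted p = 0.13), IFITM3 (0.38, adjusted p = 0.078), SP100 (0.23, adjusted p = 0.099) and IFI35 (0.40, adjusted p = 0.053) passed with IL4 alone and did not pass here. IFIH1, which did not pass with IL4 alone, did (1.07, edgeR adjusted p = 0.0075).

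**Figure D4:**
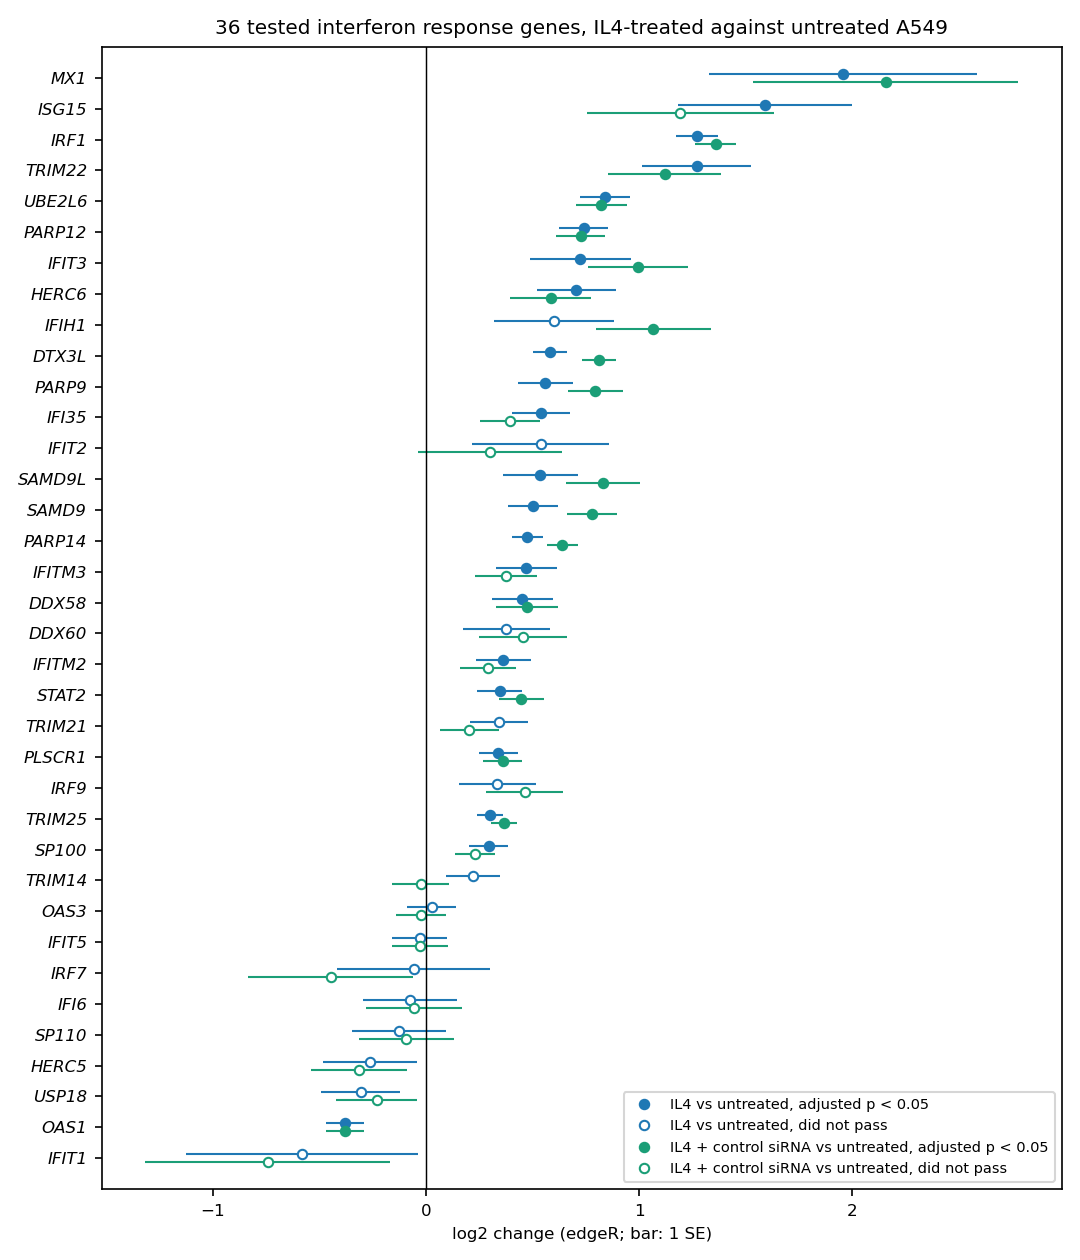
Log2 change of the 36 tested genes with IL4 alone (blue) and with IL4 and control siRNA (green), both against the same untreated libraries, with bars of 1 SE; filled points had an edgeR adjusted p under 0.05. IRF1, TRIM22, UBE2L6 and the PARP genes lie right of 0 in both colours, and OAS1 left of 0 in both.

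Set directly against IL4 alone, no member and no other gene passed with the control siRNA by edgeR: 0% of 12795 genes were called, with 628 genes at an unadjusted p under 0.05. DESeq2 also called 0 members. Of the members, DTX3L, SAMD9 and PARP14 had an unadjusted p under 0.05, with log2 changes of 0.23, 0.28 and 0.16 that did not pass. The smallest adjusted p among the members was 0.90. The 95% intervals of 31 of the 36 members lay within a log2 change of 1 in either direction.

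Compound A, given with IL4, was set against IL4 alone. Of the 36 tested members, 1 was higher and 3 were lower with the compound, where 14.4% of all genes tested were called, 6.35% higher and 8.07% lower. Of the members, 2.78% were higher and 8.33% lower, the second close to the share of all genes, and their median log2 change was -0.09, against 0.00 for all genes tested. The 95% intervals of 30 of the 36 members lay within a log2 change of 1, and 17 within 0.5. IRF1 was at 21.5, 21.2 and 20.9 CPM with Compound A, below all 3 IL4 libraries, but did not pass (log2 change -0.18, SE 0.09, edgeR adjusted p = 0.17). ISG15 was at 0.943, 0.945 and 0.890 CPM with Compound A, below the IL4 libraries, and did not pass either (log2 change -1.04, SE 0.38, adjusted p = 0.072). STAT2, IRF9 and IRF7 had log2 changes of 0.13, 0.01 and -0.22 with Compound A, none of which passed.

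TRIM14 was at 24.3, 17.6 and 17.6 CPM with Compound A, against 38.5, 29.2 and 31.7 CPM in IL4 cells. All 3 compound libraries were lower (log2 change -0.71, SE 0.13, edgeR adjusted p = 0.0020). OAS3 was at 36.7, 33.4 and 34.0 CPM with Compound A, also below every IL4 library (log2 change -0.52, SE 0.12, adjusted p = 0.0069). TRIM21 was at 6.01, 6.40 and 6.38 CPM with Compound A, against 8.44, 9.11 and 8.15 CPM in IL4 cells. Its log2 change was -0.42 (SE 0.14, edgeR adjusted p = 0.045) and lay between -0.46 and -0.38 in 23 other settings. The call at 0.05 was not met in 14 of them, among them without IL4 replicate 1 or 2 or any single compound library, with an adjusted p of at most 0.13. HERC5 moved the other way, at 5.54, 9.13 and 9.05 CPM with Compound A, against 3.94, 5.02 and 4.14 CPM in IL4 cells. All 3 compound libraries were higher, replicate 1 by the least (log2 change 0.88, SE 0.21, adjusted p = 0.0087), and without Compound A replicate 2 the adjusted p was 0.070.

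A comparison of Compound A with the control siRNA libraries leaves out the IL4-alone libraries, but its groups differ by the siRNA too. There 1 member was higher and 2 were lower, where 5.28% of all genes tested were called, 1.86% higher and 3.42% lower. HERC5 was higher than its 4.77, 4.53 and 3.27 CPM in control siRNA cells (log2 change 0.93, SE 0.22, edgeR adjusted p = 0.015). OAS3 was lower than its 48.1, 49.8 and 47.7 CPM in control siRNA cells (log2 change -0.47, SE 0.12, adjusted p = 0.027). DTX3L was at 35.1, 37.8 and 33.7 CPM with Compound A, against 41.9, 45.9 and 42.8 CPM with the control siRNA (log2 change -0.27, SE 0.08, edgeR adjusted p = 0.045), a call lost in 13 of 23 other settings, among them without any single library of either group (adjusted p up to 0.18). HERC5 lost its call here without Compound A replicate 2 or 3 or control siRNA replicate 3 (adjusted p = 0.10, 0.074 and 0.074). OAS3 lost its call when any single library of either group was left out (adjusted p up to 0.13). TRIM14 was lower with Compound A than its 26.9, 31.4 and 24.9 CPM in control siRNA cells but did not pass (log2 change -0.46, edgeR adjusted p = 0.057). Both comparisons share the Compound A libraries, so their values are not independent of each other.

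The ALOX15 siRNA was set against the control siRNA, both with IL4. None of the 36 tested members passed, where 0.696% of all genes tested were called, 0.313% higher and 0.383% lower. The members' median log2 change was 0.02, 1 of them (DTX3L) had an unadjusted p under 0.05, and their smallest edgeR adjusted p was 0.52. DESeq2 called 0 members as well. IRF1 was at 24.2, 23.7 and 23.7 CPM with the ALOX15 siRNA, within the range of the control siRNA libraries or just below it, and the 95% interval of its log2 change was -0.28 to 0.09. OAS3, TRIM14 and HERC5 had log2 changes of -0.10, 0.20 and 0.20 and did not pass. The intervals lay within a log2 change of 0.5 in 25 of the 36 members and within 1 in 32. The widest intervals belonged to IFIT1 (-1.71 to 1.16) and MX1 (-0.79 to 1.17), both with few counts.

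**Figure D5:**
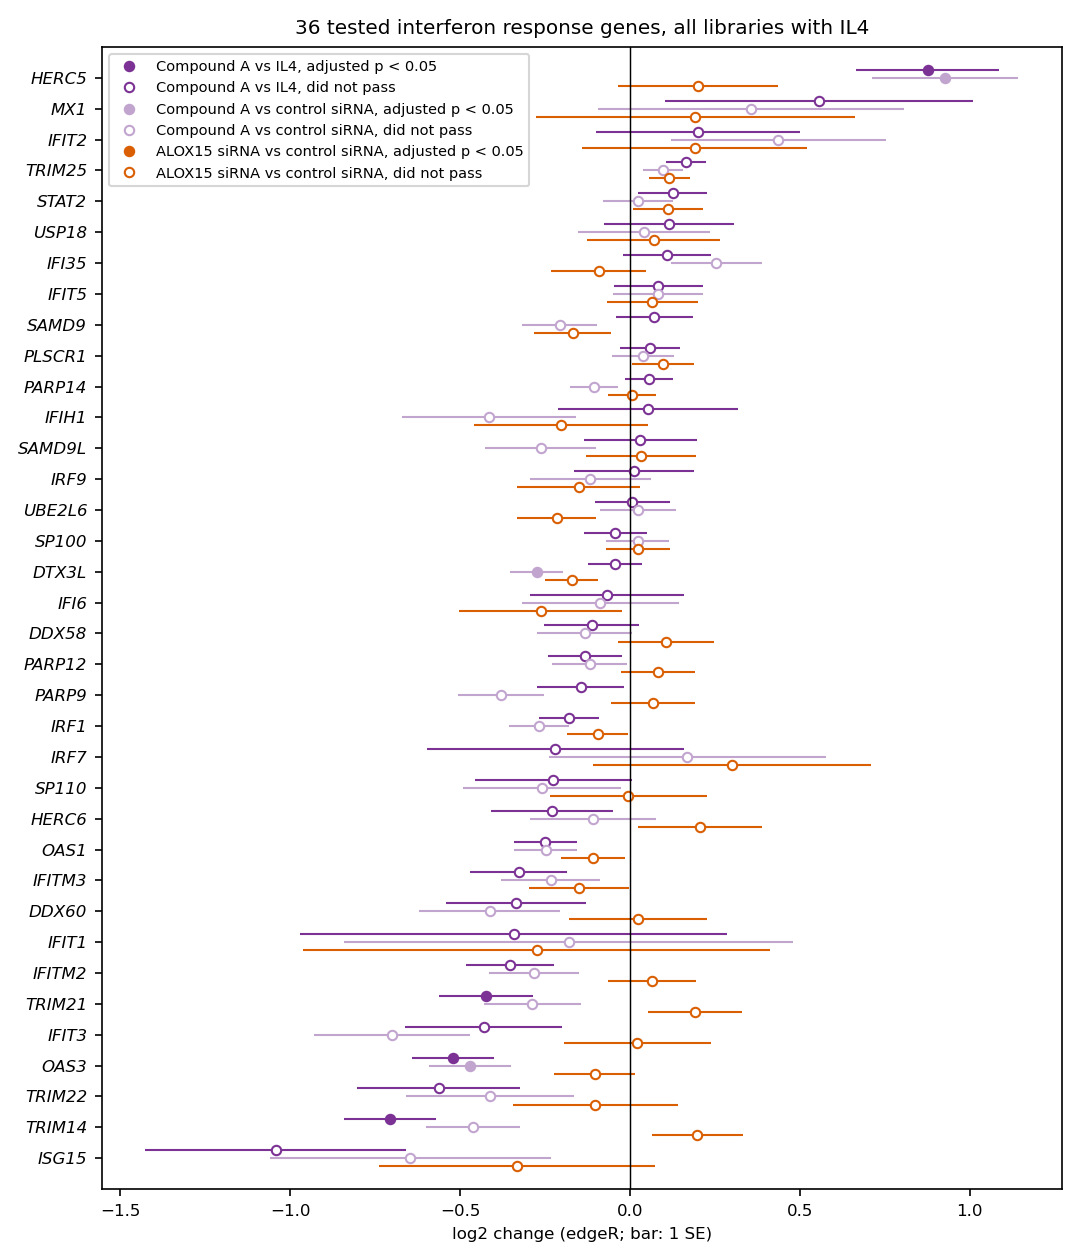
Log2 change of the 36 tested genes with Compound A against IL4 alone (dark purple), with Compound A against control siRNA (light purple) and with ALOX15 siRNA against control siRNA (orange), all with IL4, with bars of 1 SE; filled points had an edgeR adjusted p under 0.05. HERC5 is at the top, TRIM14 and ISG15 are at the bottom, and no orange point is filled.

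The difference between the Compound A effect and the ALOX15 siRNA effect was tested in the same model. Over all genes tested, 5.14% were called, 1.94% higher and 3.20% lower. Of the members, 0 were higher, and TRIM14, 1 of 36 tested (2.78%), passed as lower. Its log2 change was -0.71 with Compound A and 0.20 with the ALOX15 siRNA, a difference of -0.91 (SE 0.19, 95% interval -1.30 to -0.51, edgeR adjusted p = 0.0070). TRIM14 was at 30.0, 32.2 and 32.1 CPM in ALOX15 siRNA libraries, above all 3 compound libraries. TRIM21 followed with a difference of -0.62 that did not pass (adjusted p = 0.073), and for HERC5 and OAS3 the differences of 0.68 and -0.42 did not pass (adjusted p = 0.24 and 0.17).

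The genes upstream of these members were read from a list of ligands, receptors, kinases and regulators. Of the 8 interferon genes on the list, IFNA1, IFNK, IFNL1, IFNL2, IFNL3 and IFNG had 0 counts in all 15 libraries, which allows up to 0.0259 CPM over them all. IFNB1 had 1 count, in an untreated library, and IFNE reached at most 1.94 CPM, also in an untreated library. Of the 23 genes, 14 were tested, and with IL4 3 were higher and 3 lower (21.4% each, against 11.2% higher and 11.6% lower among all genes tested), with a median log2 change of 0.05. JAK1 was at 279, 289 and 307 CPM with IL4, against 198, 229 and 231 CPM in untreated cells (log2 change 0.40, SE 0.07, edgeR adjusted p = 1.2e-04), and the groups did not overlap. The receptor subunits IFNAR1 and IFNAR2 and the kinase TYK2 had log2 changes of 0.05, 0.24 and 0.03 and did not pass (edgeR adjusted p = 0.77, 0.088 and 0.90). With the control siRNA against the same untreated libraries, IFNAR2 did pass (log2 change 0.35, edgeR adjusted p = 0.017), while IFNAR1 and TYK2 did not. There 4 of the 14 were higher and 0 lower (28.6% higher, against 9.93% of all genes tested). Of 14 tested genes that sense nucleic acids or relay the signal to interferon genes, TRAF3, an adaptor, was higher (log2 change 0.29, adjusted p = 0.0090) and the kinase TBK1 lower (-0.35, adjusted p = 0.0076) with IL4 alone, 7.14% of the list in each direction and below the shares of all genes. With the control siRNA against untreated, 3 of these 14 were higher (21.4%, against 9.93% of all genes tested) and 0 lower. TBK1 did not pass there (log2 change -0.19, edgeR adjusted p = 0.16).

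Genes known as targets of interferon gamma and IRF1 were also counted. Of 27, 18 were tested and 11 were higher (61.1%, against 11.2% of all genes tested) and 0 lower with IL4, with a median log2 change of 0.46, against -0.02 for all genes tested. GBP3, a guanylate-binding GTPase, was at 13.5, 17.4 and 14.0 CPM with IL4, against 5.08, 5.17 and 4.63 CPM in untreated cells (log2 change 1.58, SE 0.16, edgeR adjusted p = 1.8e-07). B2M, the light chain of HLA class I, was at 265, 327 and 309 CPM with IL4, against 174, 183 and 169 CPM in untreated cells (log2 change 0.77, SE 0.07, adjusted p = 7.9e-08). APOL6 and TAPBP had log2 changes of 1.22 and 0.67 and passed as well. With Compound A against IL4 alone, 1 of the 18 was higher (5.56%, against 6.35% of all genes tested) and 5 were lower (27.8%, against 8.07%), among them GBP3 (log2 change -0.77, edgeR adjusted p = 0.0018), TAPBP (-0.34) and NLRC5 (-1.33), the activator of HLA class I genes. With the ALOX15 siRNA against the control siRNA, none of these 18 passed, where 0.696% of all genes tested were called. In the test of the difference between both effects, 0 of the 18 passed (smallest edgeR adjusted p = 0.053), where 5.14% of all genes tested were called. TBK1, of the list of sensing genes above, was higher with Compound A than with IL4 alone (log2 change 0.46, edgeR adjusted p = 0.0028). Of the 14 tested genes of that list, 1 was higher (7.14%, against 6.35% of all genes tested) and 0 were lower.

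Genes known as IL4 and STAT6 targets gave the scale of the IL4 response. Of 13, 5 were tested and 4 were higher with IL4, with log2 changes of 6.94 for the chemokine CCL26, 5.36 for ALOX15, 4.86 for the chemokine CCL24 and 4.67 for the feedback inhibitor CISH, all larger than that of any interferon response gene. Markers of other states moved with IL4 as well. The summed level of 5 epithelial markers, mainly KRT8 and KRT18, was 8470 to 10860 CPM with IL4, against 5171 to 5921 CPM in untreated cells, and that of 3 fibroblast markers, mainly COL1A1, was 16.8 to 24.6 CPM with IL4, against 6.94 to 8.70 CPM in untreated cells. The epithelial list did not move as one: KRT8, KRT18 and KRT19 were higher with IL4 (log2 changes 0.78, 0.84 and 0.55), EPCAM was lower (-0.53, edgeR adjusted p = 0.013) and CDH1 did not pass (0.14, adjusted p = 0.11). Nor did the fibroblast list: COL1A1 was higher (log2 change 1.44, edgeR adjusted p = 1.6e-06), LUM did not pass (0.11, adjusted p = 0.86) and PDGFRB was too low to test. The epithelial and fibroblast sums were 7257 to 8215 and 7.56 to 10.3 CPM with Compound A. Their part in the results above was not tested.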

How the data were processed

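RNA-seq was analysed from the authors' deposited table of expected counts (RSEM's unscaled estimates of reads per gene) in 15 A549 libraries. Per the submitters' processing notes, Bowtie2 2.1.0, RSEM 1.2.15 and the hg38 build were used; annotation, strand setting and read filters are not given in the sources used here. Counts were rounded, filtered with filterByExpr, scaled by TMM and fitted for all libraries together in R 4.3.3 with the robust quasi-likelihood method of edgeR 4.0.16. The Benjamini-Hochberg adjustment ran over 12795 genes, at 0.05. SE is the absolute log2 change over the square root of F. CPM are counts per 1e6 counts of the plain library total. The fit was tested on simulated data. Intervals from counts cover counting error only.

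The members and lists were chosen with earlier results of these data known. Members were named in full if they passed with IL4 and had an absolute log2 change of at least 0.5 or were among the 5 smallest adjusted p; in other comparisons, if they passed (at most 8); IRF1, IRF7, IRF9 and STAT2 always. Gene coordinates and transcript lengths came from GENCODE gene models on GRCh38, and promoter sequences from RefSeq. Alternatives were DESeq2 1.42.0, upper-quartile or RLE scaling, a filter of 1 CPM in 3 libraries or none, a fit without the groups not compared, a block for replicate number, a minimum fold of 1.5, and leaving out each library. A GC content correction (loess span 0.3) was added after seeing the data. Some items are not reported here.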

Additional observations from a re-analysis of the deposited data

Results flagged for a closer look

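The Compound A effect and the ALOX15 siRNA effect on TRIM14 differed by the test of the difference itself, with a log2 difference of -0.91 (edgeR adjusted p = 0.0070). TRIM14 was at 24.3, 17.6 and 17.6 CPM with Compound A, against 38.5, 29.2 and 31.7 CPM with IL4 alone, and at 30.0, 32.2 and 32.1 CPM with the ALOX15 siRNA, against 26.9, 31.4 and 24.9 CPM with the control siRNA. All 3 compound libraries were below all libraries of the other 3 groups with IL4. TRIM14 was 1 of 36 tested members to pass as lower (2.78%), below the 3.20% of all genes tested that were lower. It did not pass for Compound A against the control siRNA (edgeR adjusted p = 0.057) or for the ALOX15 siRNA against the control siRNA.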

How the results depend on the processing

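No member called in a comparison changed direction there under any alternative run in which it was tested, and neither did IRF9 with IL4. Direction was not followed in this way for the other members that did not pass. The members' median log2 change crossed 0 for the ALOX15 siRNA against the control siRNA (0.02, with -0.03 to 0.04 over the alternatives; below 0 without ALOX15 siRNA replicate 2 or control siRNA replicate 1) and for the control siRNA against IL4 alone (0.01, with -0.01 to 0.03). With IL4 against untreated, members higher ranged from 12 (without untreated replicate 1) to 21 with 1 library left out. Of all genes, 1508 of 12912 were higher without untreated replicate 1, against 1435 of 12795 in the main fit. At a 1.5-fold threshold 8 members were higher and 0 lower, and all genes were not counted at that threshold. Without untreated replicate 1, STAT2, DDX58, IFIT3, ISG15, MX1, SAMD9L, IFITM2, IFITM3 and SP100 did not pass. IFIT3 and SAMD9L also did not pass with DESeq2 (DESeq2 adjusted p = 0.082 and 0.088) or without a filter (edgeR adjusted p = 0.052 and 0.060). Fitting the compared groups only, they did not pass either (edgeR adjusted p = 0.093 and 0.10). Nor did DDX58, SP100, IFITM2 and IFITM3 in that fit (edgeR adjusted p = 0.083, 0.098, 0.13 and 0.092), or IFITM2 with DESeq2 (DESeq2 adjusted p = 0.055). With the control siRNA against untreated, 14 to 21 members were higher with 1 library left out, and at 1.5-fold 0 were lower. The 14 came without control siRNA replicate 3, where 1181 of 12955 genes were higher. For Compound A against IL4, 0 to 2 members were higher and 2 to 5 lower with 1 library left out. Without Compound A replicate 2, 0 members were higher, where 294 of 12925 genes were. Without IL4 replicate 3, 2 members were higher and 5 lower, where 1493 and 1523 of 12924 genes were. In the same comparison 2 members were higher with the GC content correction, where 947 of 12795 genes were. A fit of the compared groups only gave 0 members higher and 1 lower, where 130 and 267 of 12475 genes were. At 1.5-fold 1 member was lower. For Compound A against control siRNA, 0 to 1 members were higher and 0 to 3 lower with 1 library left out. In these fits all genes called were fewest without Compound A replicate 2, with 65 higher and 155 lower of 12925. They were most without IL4 replicate 1, with 741 higher and 897 lower of 12945. At 1.5-fold 0 members were lower, and all genes were not counted at that threshold. With the GC content correction 5 members were lower, where 753 of 12795 genes were. For the difference between both effects, 1 to 2 members were lower with 1 library left out. The 2 came without IL4 replicate 3, where 638 of 12924 genes were lower. For the ALOX15 siRNA, 0 members passed under every alternative run. Whether replicate numbers pair the libraries was not settled. Of 30 same-number correlations of deviations, 8 were over 0.1 (range -0.13 to 0.29), and 9 of 15 libraries correlated best with their own number. With a replicate block, 21 members were higher with IL4, 18 with the control siRNA against untreated and 2 with Compound A against IL4. In the same order, 1597, 1397 and 1183 of 12795 genes were higher with the block, against 1435, 1271 and 813 without it. The cause of these changes was not tested. Depth limits ISG15, MX1, IFIT1 and IRF7, which have few counts.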

Other observations

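SOCS1, the feedback inhibitor of JAK signalling that both interferons and IL4 induce, was too low to test and is named here after its values were seen. It was at 0.118, 0.105 and 0.148 CPM with Compound A, against 1.83, 0.660 and 0.518 CPM with IL4 alone, from 3 counts with Compound A and 22 with IL4. The ratio of Compound A over IL4 was 0.123, with an exact 95% interval of 0.0237 to 0.411 that covers counting error only. Without IL4 replicate 1, which leaves 9 counts with IL4, the ratio was 0.206 (0.0359 to 0.826), a setting chosen after seeing the data. SOCS1 was at 0.806, 0.775 and 0.386 CPM with the ALOX15 siRNA, against 0.289, 0.780 and 0.711 CPM with the control siRNA, and these groups overlapped.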
